A study of Mus musculus with 5 samples.

Results

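The regions described here are bin pairs of the gene desert that separates Shh from Rnf32 on mouse chromosome 5. They were chosen by position: both 5 kb bins lie between 28,475,001 and 29,190,000 (mm10, 715 kb) and are 50 kb or more apart. This gave 8911 bin pairs, of which 8406 were used, out of 145,077 used in the whole captured region of 2790 kb. The rest hold 1 of 4 bins with few contacts in at least 1 map. Cuts at 28,685,001 and 28,875,001 divide the stretch into a Shh-side part of 210 kb, a middle part of 190 kb and an Rnf32-side part of 315 kb. The cuts were placed with contact values of these maps known, so contact across them is given as a description, with no test.

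Shh encodes a secreted signal that patterns the limb bud, and its limb enhancer, the ZRS, lies far away inside an intron of Lmbr1. The desert between them holds other Shh enhancers, which act in other tissues. Chromosomes fold into domains within which DNA segments meet often, and boundaries between domains are commonly held by the DNA-binding protein CTCF together with the cohesin ring. A low insulation value marks a place that few contacts cross, as at such a boundary.

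The maps came from capture Hi-C, which counts ligated pairs of DNA fragments, on limb buds of E10.5 embryos. There were 5 homozygous genotypes with 1 library each: intraTAD2, intraTAD3, intraTAD2-i4CTCF, intraTAD2-2xBorCTCF and intraTAD2-1xBorCTCF. The last 3 are called i4CTCF, 2xBorCTCF and 1xBorCTCF here. Embryos of intraTAD2, intraTAD3 and i4CTCF came from mating, and those of 2xBorCTCF and 1xBorCTCF from tetraploid aggregation, in which cultured stem cells form the embryo on a tetraploid host. Allele and embryo source therefore cannot be told apart for the BorCTCF maps. The sources used here do not give what each allele changes or how many embryos were pooled. The comparison was a wild-type E10.5 limb bud map that belongs to no sample and whose origin was not described, so genotype and origin of the library cannot be told apart in any ratio to wild type. All 5 such ratios share that map. The whole captured region held from 1,121,373 contacts in 2xBorCTCF to 2,942,790 for intraTAD2, and the wild-type map held 1,646,616.

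The stretch holds no protein-coding gene in the RefSeq annotation. Shh (28,456,840 to 28,467,101) lies just before it, and Rnf32 (29,192,745 to 29,227,635) and Lmbr1 (29,229,802 to 29,378,421) follow it. The lncRNA gene 9530036O11Rik (28,466,984 to 28,719,209) spans the first cut. The second cut lies between the lncRNA genes Gm42243 (28,840,656 to 28,858,429) in the middle part and Gm35688 (28,890,378 to 29,004,724) in the Rnf32-side part. Their promoter sequences are shown because they are the annotated starts nearest to that cut, with windows that end 34.3 kb before it and begin 28.5 kb after it. They come from RefSeq, build GRCm38.p6, run 5′ to 3′ on the gene's strand, and have the first transcribed base in a capital letter. The start shown for Gm35688, 28,903,523, lies inside the span of this minus-strand gene, so it is not the gene's outermost start.
Gm42243, chr5:28840406-28840705, plus strand: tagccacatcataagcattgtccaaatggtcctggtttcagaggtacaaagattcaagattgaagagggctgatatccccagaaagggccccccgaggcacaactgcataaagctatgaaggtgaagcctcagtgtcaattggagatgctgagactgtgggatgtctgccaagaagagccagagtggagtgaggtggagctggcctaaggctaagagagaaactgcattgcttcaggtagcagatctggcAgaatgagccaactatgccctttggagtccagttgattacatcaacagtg
Gm35688, chr5:28903474-28903773, minus strand: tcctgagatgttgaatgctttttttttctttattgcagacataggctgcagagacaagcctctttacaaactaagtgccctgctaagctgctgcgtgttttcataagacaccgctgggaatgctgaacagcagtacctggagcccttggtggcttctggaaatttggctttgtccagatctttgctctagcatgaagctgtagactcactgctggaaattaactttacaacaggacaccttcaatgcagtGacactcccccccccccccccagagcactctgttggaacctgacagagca
Their G and C content was 49.0% for Gm42243 and 48.3% for Gm35688, with 1 and 2 CG dinucleotides, where 32,851 mouse promoters of the same length had medians of 52.7% and 7. These are descriptions of the windows and say nothing of what binds there. The sequence at the cuts themselves was not analysed here.

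Taken over all its bin pairs, the desert had contacts above the average of the captured region. Pairs 50 to 100 kb apart were slightly below that average, and the ratio grew with distance. Contact is given as a ratio to the average contact that the same map shows at that distance across the captured region, so that 1 is the average. Over all 8406 bin pairs it averaged 1.34 for intraTAD2, 1.36 for intraTAD3, 1.35 for i4CTCF, 1.28 for 2xBorCTCF, 1.23 for 1xBorCTCF and 1.302 for wild type. Bin pairs 50 to 100 kb apart stood at 0.941 to 0.982 in the mutant maps and at 0.944 for wild type. Those 600 to 720 kb apart stood at 2.43 for intraTAD2, 2.55 for intraTAD3, 2.33 for i4CTCF, 2.14 for 2xBorCTCF, 1.84 for 1xBorCTCF and 2.32 for wild type. The ends of the desert thus met most, relative to distance, and least in the 1xBorCTCF map. On the log2 scale the 1xBorCTCF value differed from wild type by -0.33 (-0.46 to -0.21). Ranges in parentheses are 95% intervals of counting error alone. With 1 library per genotype, no spread between embryos could be estimated and no test was made.

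Within the 3 parts contact was close to the average, and between the 2 outer parts it was far above it. The median distance was 90 to 125 kb within parts and 450 kb between the outer parts. All wild-type pairs of the stretch 400 to 500 kb apart stood at 1.72. Distances were not matched, so place and distance cannot be told apart in this order of blocks. The Shh-side part had a mean contact of 1.05 for intraTAD2, 1.02 for intraTAD3, 1.05 for i4CTCF, 1.08 for 2xBorCTCF, 1.06 for 1xBorCTCF and 1.01 for wild type. The middle part lay between 0.982 and 1.04 in the mutant maps and at 0.978 for wild type, and the Rnf32-side part between 1.03 and 1.09 in the mutant maps and at 1.01 for wild type. Contact of the Shh-side part with the Rnf32-side part was 1.84 for intraTAD2, 1.88 for intraTAD3, 1.81 for i4CTCF, 1.66 for 2xBorCTCF, 1.53 for 1xBorCTCF and 1.77 for wild type. In that block the BorCTCF maps lay below wild type, 2xBorCTCF by a log2 ratio of -0.096 (-0.14 to -0.048) and 1xBorCTCF by -0.21 (-0.25 to -0.17). With the expected contact taken from the stretch alone, which sets the mean of the stretch at each distance to 1, these ratios came to -0.021 for 2xBorCTCF and -0.053 for 1xBorCTCF, beside -0.007 for intraTAD2 and -0.010 for i4CTCF. All the farthest pairs of the stretch are in this block, so that setting draws its mean toward 1 in every map. It therefore cannot show how firm the ratios are. Without balancing i4CTCF was below wild type as well, by -0.056.

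**Figure D1:**
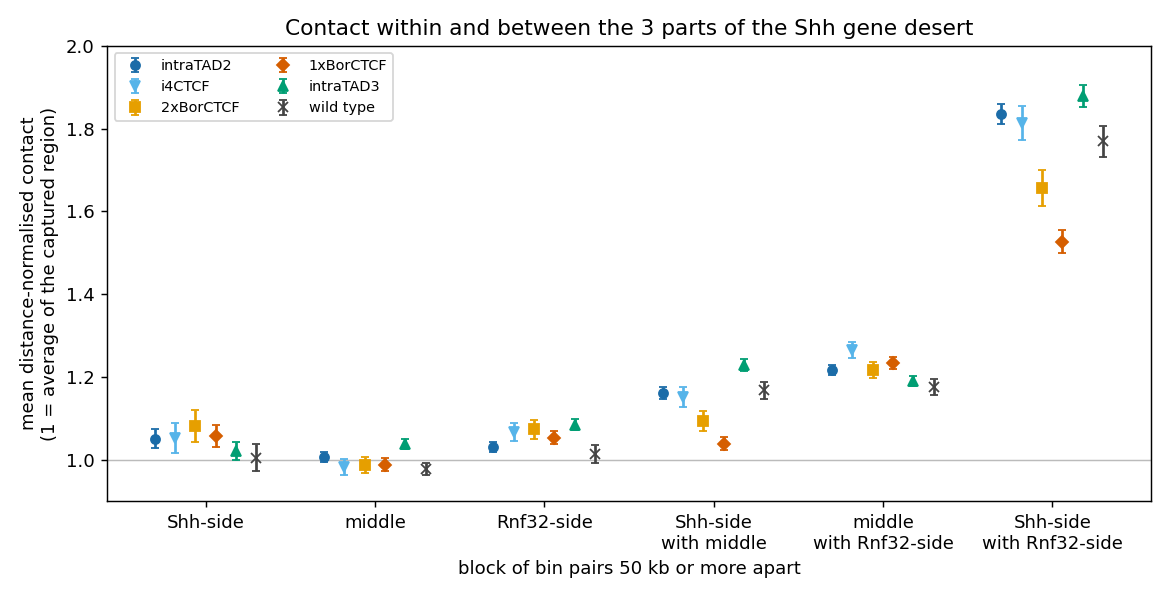
Mean distance-normalised contact (vertical axis, starting at 0.9, 1 = average of the captured region) of the 6 blocks of bin pairs within and between the 3 parts (horizontal axis), in each map, with 95% intervals of counting error. The Shh-side with Rnf32-side block is the highest in every map, and there the 2xBorCTCF and 1xBorCTCF maps lie lowest, at 1.66 and 1.53, against 1.77 for wild type. Its pairs are also the farthest apart, and distances were not matched between blocks.

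With balanced values, the Shh-side part also met the middle part less in the BorCTCF maps. That contact was 1.16 for intraTAD2, 1.23 for intraTAD3, 1.15 for i4CTCF, 1.09 for 2xBorCTCF, 1.04 for 1xBorCTCF and 1.17 for wild type. Against wild type the log2 ratio was -0.096 (-0.14 to -0.055) for 2xBorCTCF and -0.17 (-0.20 to -0.14) for 1xBorCTCF. It was 0.073 (0.042 to 0.10) for intraTAD3, and intraTAD2 and i4CTCF lay within counting error of wild type. Without balancing all 5 maps were below wild type, by -0.12 for intraTAD2, -0.048 for intraTAD3, -0.16 for i4CTCF, -0.13 for 2xBorCTCF and -0.24 for 1xBorCTCF. Contact of the middle part with the Rnf32-side part, in contrast, was higher than the 1.18 of wild type in both BorCTCF maps, at 1.22 for 2xBorCTCF (0.050, 0.017 to 0.082) and 1.23 for 1xBorCTCF (0.069, 0.041 to 0.097). So was it in intraTAD2, at 1.22 (0.049, 0.023 to 0.075), and in i4CTCF, at 1.26 (0.10, 0.073 to 0.14). With the expected contact of the stretch alone the ratio was 0.014 for intraTAD2, 0.057 for i4CTCF, 0.061 for 2xBorCTCF and 0.11 for 1xBorCTCF. Without balancing it was 0.025 for intraTAD2, 0.011 for i4CTCF, 0.064 for 2xBorCTCF and 0.032 for 1xBorCTCF. Contact within the Shh-side part stood above wild type by 0.064 (0.0092 to 0.12) for intraTAD2, 0.11 (0.037 to 0.17) for 2xBorCTCF and 0.073 (0.015 to 0.13) for 1xBorCTCF, while the 0.067 (-0.0017 to 0.13) of i4CTCF was within counting error. Without balancing the intraTAD2 ratio turned to -0.066. Such rises were not particular to the Shh-side part. The Rnf32-side part was above wild type by 0.097 for intraTAD3, 0.073 for i4CTCF, 0.081 for 2xBorCTCF and 0.055 for 1xBorCTCF, each beyond counting error. So was the middle part, by 0.042 for intraTAD2 and 0.085 for intraTAD3. Without balancing these values were 0.24, 0.026, 0.081, 0.003, -0.005 and -0.028 in the order given.

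Whether the 3 parts form sub-domains was read from contact within parts over contact between parts. In none of the 6 maps did contact within parts exceed contact between them when all bin pairs were used: the log2 ratio was -0.49 for intraTAD2, -0.47 for intraTAD3, -0.47 for i4CTCF, -0.36 for 2xBorCTCF, -0.32 for 1xBorCTCF and -0.49 for wild type. Bin pairs between parts are farther apart, with a median distance of 200 to 450 kb against 90 to 125 kb within parts, and contact grew with distance here. At equal distances the ratio was near 0, at -0.0037 (-0.022 to 0.015) for intraTAD2, 0.041 (0.022 to 0.060) for intraTAD3, -0.038 (-0.069 to -0.0071) for i4CTCF, 0.038 (0.0051 to 0.071) for 2xBorCTCF, 0.065 (0.041 to 0.089) for 1xBorCTCF and -0.047 (-0.077 to -0.017) for wild type. The name sub-domains is thus not borne out for wild type and i4CTCF, where contact at equal distances was lower within parts than between them. In intraTAD3, 2xBorCTCF and 1xBorCTCF contact within parts was higher beyond counting error, by small amounts. The cuts were placed with contact values of these maps known, so these values do not show that the parts are sub-domains there.

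At equal distances, this within-over-between ratio exceeded that of wild type by 0.043 (0.0085 to 0.078) for intraTAD2, 0.088 (0.053 to 0.12) for intraTAD3, 0.085 (0.041 to 0.13) for 2xBorCTCF and 0.11 (0.074 to 0.15) for 1xBorCTCF. The i4CTCF map differed from wild type by 0.0090 (-0.034 to 0.052). Without matching distances the ratio exceeded that of wild type by 0.12 (0.083 to 0.17) for 2xBorCTCF and 0.16 (0.13 to 0.20) for 1xBorCTCF, and differed by -0.0054 (-0.038 to 0.027) for intraTAD2 and 0.016 (-0.016 to 0.049) for intraTAD3. The intraTAD3 value was 0.086 without balancing, and 0.051 with the expected contact of the stretch alone, which gave 0.048 for 2xBorCTCF. Equal distances were added after the first values had been seen.

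Insulation along the stretch located where contact was low. It is the log2 mean contact between the 100 kb left and the 100 kb right of a bin edge, so that low values mean few contacts across. In every map the lowest values of the stretch stood at its Shh end, at the first edge, whose left window covers Shh, with -0.93 for intraTAD2, -0.81 for intraTAD3, -0.81 for i4CTCF, -0.64 for 2xBorCTCF, -0.74 for 1xBorCTCF and -0.85 for wild type. The wild-type map had 1 minimum of prominence 0.1 or more, at 28,885,001, with -0.089. At the first cut the wild-type value was 0.052.

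At the first cut the 4 maps of intraTAD2 and the genotypes named after it were low. Insulation there was -0.077 for intraTAD2, 0.033 for intraTAD3, -0.033 for i4CTCF, -0.081 for 2xBorCTCF, -0.21 for 1xBorCTCF and 0.052 for wild type. The difference from wild type was -0.13 (-0.18 to -0.081) for intraTAD2, -0.085 (-0.14 to -0.026) for i4CTCF, -0.13 (-0.19 to -0.075) for 2xBorCTCF and -0.27 (-0.32 to -0.21) for 1xBorCTCF. For each of these 4 maps it was the lowest difference from wild type over all 144 edges of the stretch with 100 kb windows. The cut was placed with contact values of these maps known, so this rank is no support for it. With 50 kb windows the lowest difference lay at 29,040,001 for i4CTCF and 28,705,001 for 2xBorCTCF. With 150 kb windows it lay at 28,695,001 for intraTAD2 and 1xBorCTCF, 28,725,001 for i4CTCF and 28,705,001 for 2xBorCTCF. In intraTAD3 the difference at the first cut was -0.020 (-0.066 to 0.027). Minima of prominence 0.1 or more lay at the cut or close by, at 28,690,001 for intraTAD2 (-0.085), 28,685,001 for 1xBorCTCF (-0.21) and 28,720,001 in both i4CTCF (-0.051) and 2xBorCTCF (-0.099). With windows of 150 kb the difference shrank to -0.035 for intraTAD2 and to -0.00075 for i4CTCF, both within counting error. Without balancing, intraTAD3 too lay below wild type at the first cut, by -0.11.

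At the second cut it was intraTAD3 that was low. Insulation there was -0.021 for intraTAD2, -0.18 for intraTAD3, 0.076 for i4CTCF, 0.047 for 2xBorCTCF, 0.0092 for 1xBorCTCF and -0.052 for wild type. The intraTAD3 map lay below wild type by -0.13 (-0.17 to -0.092), and 50 kb windows gave -0.32 (-0.36 to -0.28). Its minimum, at 28,880,001 with -0.20, had a prominence of 0.27 and was also where intraTAD3 lay farthest below wild type among the 144 edges. This cut too was placed with contact values known, so that rank is no support for it. The i4CTCF map was higher than wild type by 0.13 (0.083 to 0.18), 2xBorCTCF by 0.10 (0.050 to 0.15) and 1xBorCTCF by 0.062 (0.021 to 0.10). These 3 differences changed sign on contacts without balancing, to -0.086 for i4CTCF, -0.013 for 2xBorCTCF and -0.12 for 1xBorCTCF, and the intraTAD2 difference became -0.14. The intraTAD3 value was then also -0.14, so intraTAD3 did not stand apart from intraTAD2 in that setting.

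**Figure D2:**
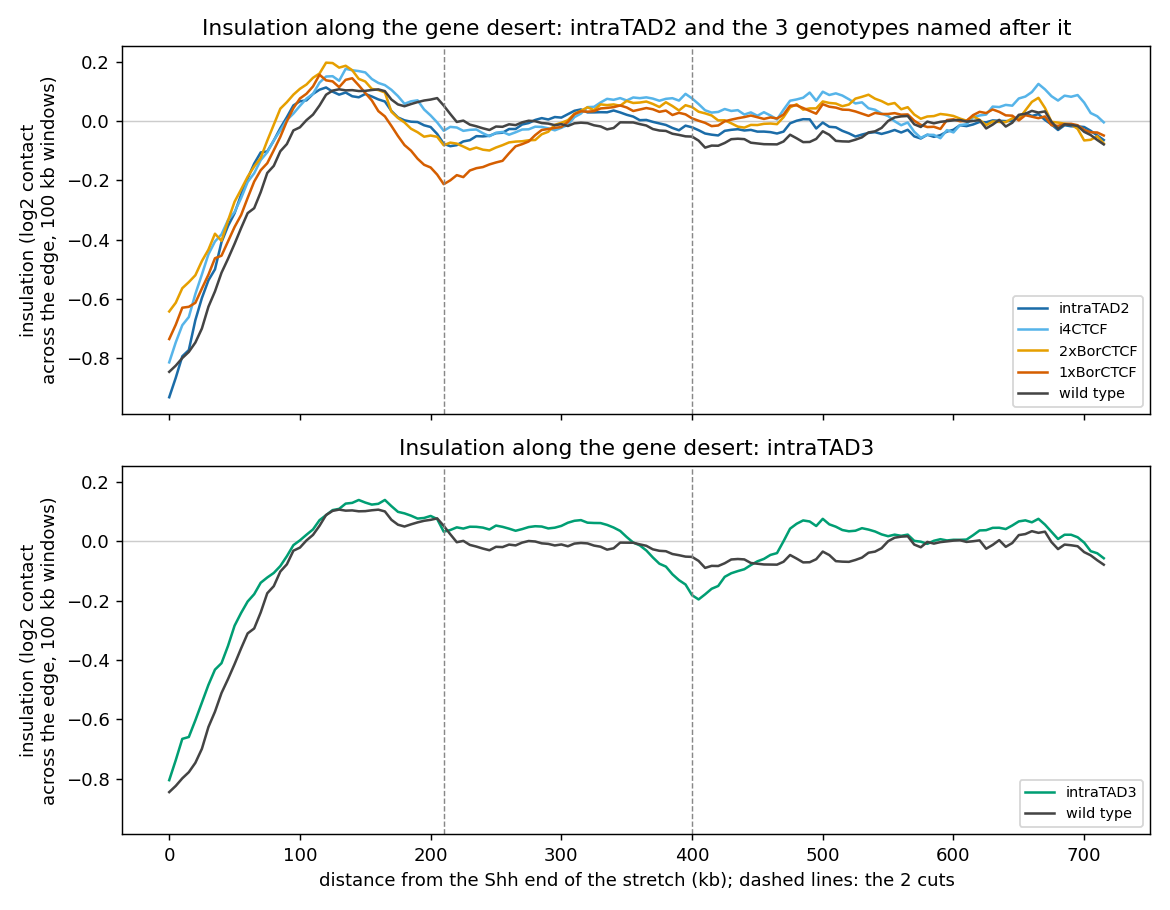
Insulation (log2 contact across each bin edge, 100 kb windows, vertical axis) along the gene desert, in kb from its Shh end (horizontal axis), with dashed lines at the 2 cuts. Top, intraTAD2 and the 3 genotypes named after it against wild type; the 1xBorCTCF line dips to -0.21 at the first cut, where wild type is at 0.052. Bottom, intraTAD3, whose line dips to -0.20 just past the second cut, against wild type.

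The bin that begins at each cut held unusual numbers of contacts in particular maps. The bin from 28,685,001 to 28,690,000 had 386% of the contacts of the map's median bin for intraTAD2, 195% for intraTAD3, 246% for i4CTCF, 212% for 2xBorCTCF, 338% for 1xBorCTCF and 204% for wild type. It was high in every map and highest in intraTAD2 and 1xBorCTCF. The bin from 28,875,001 to 28,880,000 had 107% for intraTAD2, 426% for intraTAD3, 111% for i4CTCF, 116% for 2xBorCTCF, 121% for 1xBorCTCF and 75.6% for wild type, so that intraTAD3 stood apart. In intraTAD3, 2 bins of Lmbr1 from 29,305,001 to 29,315,000 had contacts with 0 and 6 other bins, against 453 and 527 for wild type. Insulation was also taken with the crowded bin left out. The balancing had been done with it present, so leaving it out of balanced values cannot show its whole part. Without the bin right of the cut, the difference from wild type was -0.13 for intraTAD2 and -0.26 for 1xBorCTCF at the first cut, and -0.13 for intraTAD3 at the second. On contacts without balancing and without that bin, these 3 values were -0.30, -0.32 and -0.32.

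With balanced values, contact across the first cut was low at short distances in intraTAD2 and at all distances in 1xBorCTCF. Bin pairs 10 to 50 kb apart, closer than the 50 kb used elsewhere, that lie across the first cut had a contact of 0.729 for intraTAD2, 0.933 for intraTAD3, 0.872 for i4CTCF, 0.818 for 2xBorCTCF, 0.759 for 1xBorCTCF and 0.954 for wild type. For pairs 200 to 400 kb apart the values were 1.38 for intraTAD2, 1.43 for intraTAD3, 1.35 for i4CTCF, 1.25 for 2xBorCTCF, 1.20 for 1xBorCTCF and 1.35 for wild type. The intraTAD2 log2 ratio to wild type thus went with distance as -0.39 (-0.45 to -0.32) at 10 to 50 kb, -0.12 (-0.18 to -0.069) at 50 to 100 kb, -0.031 (-0.075 to 0.013) at 100 to 200 kb and 0.032 (-0.0014 to 0.066) at 200 to 400 kb. In 1xBorCTCF the same ratios were -0.33 (-0.40 to -0.26), -0.21 (-0.27 to -0.15), -0.15 (-0.20 to -0.10) and -0.17 (-0.21 to -0.13). In 2xBorCTCF they were -0.22 (-0.30 to -0.14), -0.097 (-0.16 to -0.029), -0.040 (-0.099 to 0.020) and -0.11 (-0.16 to -0.068). The i4CTCF map was below wild type at 10 to 50 kb, by -0.13 (-0.21 to -0.048), and within counting error of it at the other 3 distances. These ratios are not given without balancing, and the pairs include the bin that begins at the cut. At 10 to 50 kb the pairs held 8092 contacts for intraTAD2 and 4646 for wild type. The captured region held 2,942,790 and 1,646,616, so before balancing their share of all contacts was nearly that of wild type.

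Across the second cut it was the intraTAD3 map that was low at short distances, again with balanced values. At 10 to 50 kb contact was 0.875 for intraTAD2, 0.664 for intraTAD3, 0.911 for i4CTCF, 0.922 for 2xBorCTCF, 0.896 for 1xBorCTCF and 0.887 for wild type. The intraTAD3 ratio to wild type was -0.42 (-0.47 to -0.36) at 10 to 50 kb, -0.20 (-0.24 to -0.15) at 50 to 100 kb, -0.013 (-0.050 to 0.024) at 100 to 200 kb and 0.050 (0.019 to 0.080) at 200 to 400 kb. In the other 4 mutant maps the ratio stayed between -0.037 and 0.11 at all 4 distances. At 10 to 50 kb these pairs held 10,285 contacts for intraTAD3 and 5408 for wild type. The captured region held 2,848,921 and 1,646,616, so before balancing their share of all contacts in intraTAD3 was not below that of wild type.

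**Figure D3:**
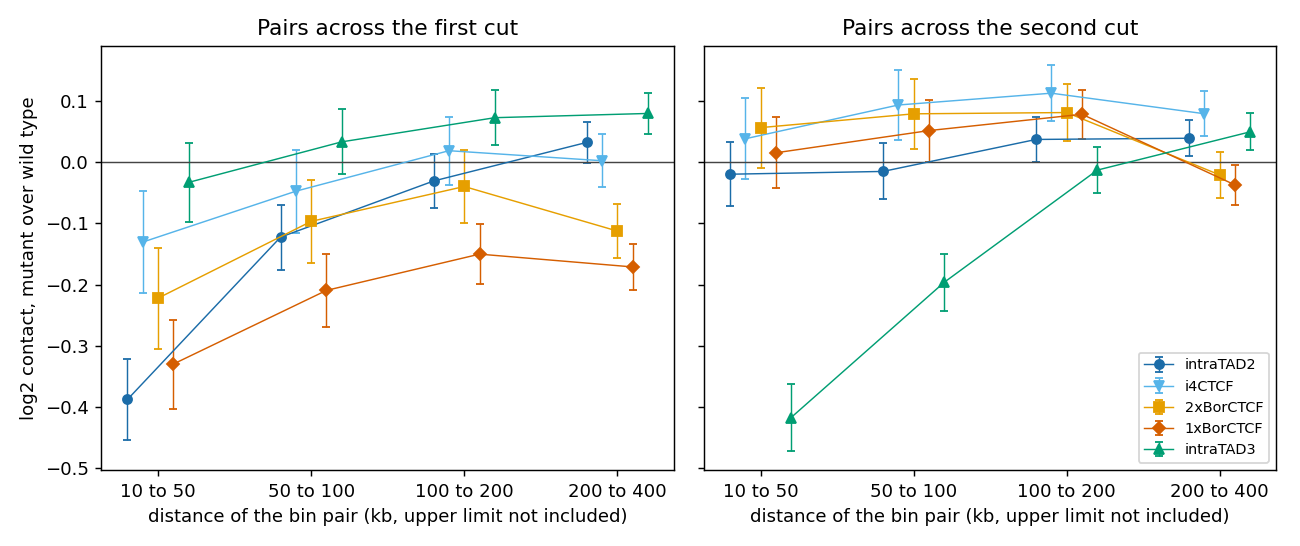
Log2 contact of each mutant map over wild type (vertical axis) for bin pairs across the first cut (left) and the second cut (right), by distance of the pair in kb (horizontal axis), with 95% intervals of counting error. Across the first cut intraTAD2 climbs to 0.032 at the longest distances while 1xBorCTCF remains at -0.17, and across the second cut intraTAD3 alone is far below 0 at short distances. All values are balanced.

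Further minima lay deeper in the Rnf32-side part. With 100 kb windows i4CTCF had one at 29,065,001, where insulation was -0.047 for intraTAD2, 0.0073 for intraTAD3, -0.058 for i4CTCF, 0.024 for 2xBorCTCF, -0.027 for 1xBorCTCF and -0.0026 for wild type. Windows of 50 kb gave a minimum of prominence 0.1 or more within 25 kb of the bin at 29,055,001 in all 5 mutant maps, from -0.13 for 1xBorCTCF to -0.25 for intraTAD3. Wild type had none there and its own at 28,900,001 (-0.21) and 28,995,001 (-0.23). The bin at 29,055,001 had no contact in wild type and was left out of all maps, and its part in these minima was not tested.

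In tiles of 25 kb the changes past 1.3-fold were few. The stretch held 325 tiles, and 2373 tiles of the captured region in the same range of distances gave the background. In intraTAD2, 4 tiles were higher than wild type by that limit (background 3.29%) and 0 were lower (4.64%). In intraTAD3, 4 were higher (background 3.37%) and 0 lower (5.56%). In i4CTCF, 12 were higher (background 5.52%) and 4 lower (7.8%). In 2xBorCTCF, 11 were higher (background 7.8%) and 29 lower (7.75%), and in 1xBorCTCF 2 were higher (6.78%) and 26 lower (5.18%). The lower tiles came to 8.92% of the stretch for 2xBorCTCF, near its background, and to 8% for 1xBorCTCF, above its background. All other shares lay below theirs. The background covers the same range of distances but was not matched in the mix of distances or in contacts per tile. The shares are therefore set side by side as values only. The median log2 ratio over the tiles of the stretch was 0.029 for intraTAD2, 0.065 for intraTAD3, 0.042 for i4CTCF, -0.0037 for 2xBorCTCF and -0.041 for 1xBorCTCF, beside 0.0041, -0.0019, 0.00041, 0.00056 and 0.019 over all tiles in that order of maps.

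Of the 26 lower tiles in 1xBorCTCF, 20 joined the Shh-side part with the Rnf32-side part (of 96 such tiles), 6 joined it with the middle part (of 61), and 0 lay in the other 4 blocks. Of the 29 in 2xBorCTCF, 19 and 6 lay in these blocks and 4 joined the middle part with the Rnf32-side part (of 93). Pairs of the Shh-side with Rnf32-side block lie farthest apart, at a median of 450 kb, where contacts are fewest. No background was taken for single blocks, so these counts do not show where changes lie. The largest fall in 1xBorCTCF joined 28,575,001-28,600,000 with 29,150,001-29,175,000, at 0.879 for 1xBorCTCF and 1.74 for wild type (79 and 116 contacts, log2 ratio -0.99, -1.52 to -0.45). The other maps had 2.07 for intraTAD2, 1.81 for intraTAD3, 1.56 for i4CTCF and 1.43 for 2xBorCTCF there. The largest fall in 2xBorCTCF joined 28,500,001-28,525,000 with 29,100,001-29,125,000, at 1.38 for 2xBorCTCF against 2.42 for wild type (-0.81, -1.35 to -0.27). These tiles rest on few contacts, as their wide intervals show. Tiles of largest rise or fall, here and below, were picked by the ratio that is printed. Their intervals do not allow for that choice, so an interval without 0 is no sign of a change.

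The largest rise in 1xBorCTCF joined the start of the stretch beside Shh (28,475,001-28,500,000) with the tile that holds the first cut (28,675,001-28,700,000). Contact there was 1.20 for intraTAD2, 1.18 for intraTAD3, 1.29 for i4CTCF, 1.48 for 2xBorCTCF, 1.58 for 1xBorCTCF and 1.16 for wild type. With these balanced values the BorCTCF maps were the highest, above wild type by 0.34 (0.15 to 0.54) for 2xBorCTCF and 0.44 (0.27 to 0.60) for 1xBorCTCF. This tile had 1140 contacts for intraTAD2, 433 for 2xBorCTCF, 930 for 1xBorCTCF and 509 for wild type. The captured region held 2,942,790, 1,121,373, 1,975,131 and 1,646,616 in that order. Before balancing, intraTAD2 thus had nearly the same share of its contacts there as 2xBorCTCF. The tile holds the crowded bin that begins at the first cut, and its contact without balancing is not given.

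The largest rises in the other maps were of like size, with wider intervals, and they too were picked as extremes. In intraTAD2 it joined 28,500,001-28,525,000 with 29,075,001-29,100,000, at 2.77 for intraTAD2 against 1.94 for wild type (0.51, 0.071 to 0.96). In intraTAD3 and in 2xBorCTCF it was the same tile, 28,525,001-28,550,000 with 29,075,001-29,100,000, at 2.25 for intraTAD3 and 2.51 for 2xBorCTCF against 1.60 for wild type (0.49, 0.027 to 0.95, and 0.65, 0.050 to 1.24). In i4CTCF it joined 28,525,001-28,550,000 with 28,750,001-28,775,000, at 1.70 for i4CTCF against 1.14 for wild type (0.58, 0.18 to 0.99). The largest falls were -0.36 (-0.66 to -0.050) for intraTAD2, -0.31 (-0.59 to -0.031) for intraTAD3 and -0.47 (-0.93 to -0.0060) for i4CTCF.

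**Figure D4:**
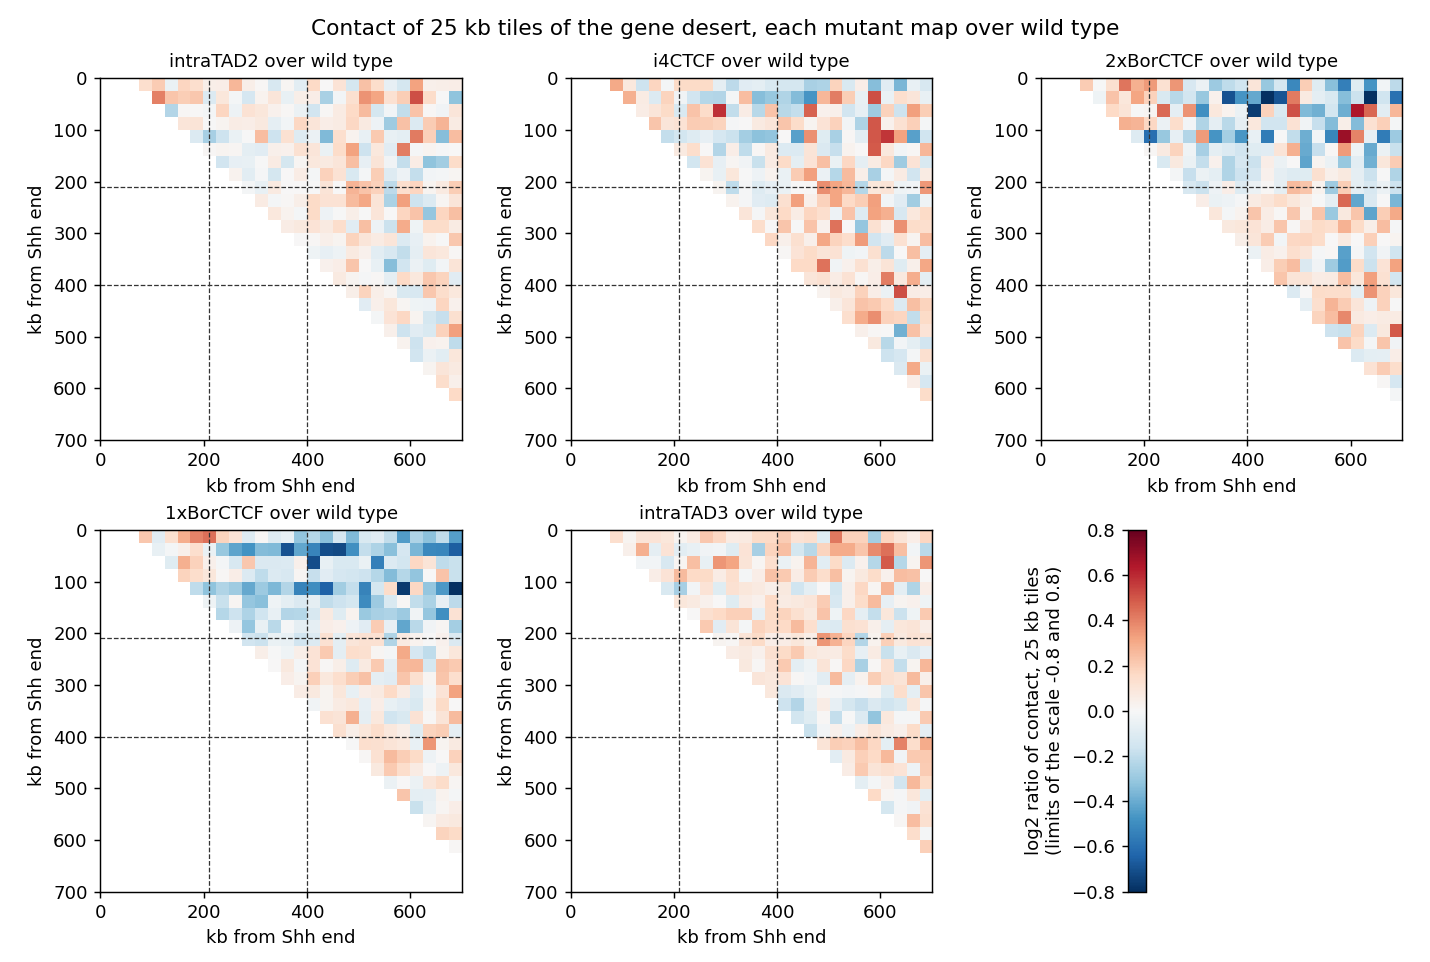
Log2 ratio of contact in 25 kb tiles of the gene desert, each mutant map over wild type, with position in kb from the Shh end on both axes, dashed lines at the 2 cuts and the colour scale ending at -0.8 and 0.8. The 1xBorCTCF panel is mostly blue in the rows of the Shh-side part beyond the first cut, and red at the tile that joins the Shh end to the first cut (0.44). Its 26 lower tiles lie in those rows, in blocks of 61 and 96 tiles for which no background was taken. Values are balanced.

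The tiles of highest contact in wild type joined the first 75 kb of the stretch with its last 190 kb. The first of them joined 28,475,001-28,500,000 with 29,050,001-29,075,000, at 2.70 for intraTAD2, 2.47 for intraTAD3, 2.34 for i4CTCF, 2.04 for 2xBorCTCF, 2.18 for 1xBorCTCF and 2.97 for wild type. The next joined the same start with 29,025,001-29,050,000, at 2.80 for intraTAD2, 3.33 for intraTAD3, 3.04 for i4CTCF, 2.32 for 2xBorCTCF, 2.55 for 1xBorCTCF and 2.93 for wild type. These tiles were chosen as highest in wild type, so their order between maps is given as values only. The other 3 had 2.65 to 2.68 for wild type, and 1.77 to 2.32 for 2xBorCTCF and 1.69 to 1.97 for 1xBorCTCF.

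Averaged over all its partners in the stretch, a 25 kb segment met the rest most within 75 kb of the Shh end and least in the middle part. Segments near the ends have partners farther away than those in the middle, and contact grew with distance here. Distances were not matched, so place and distance cannot be told apart in this order of segments. The first segment had 1.75 for intraTAD2, 1.82 for intraTAD3, 1.60 for i4CTCF, 1.56 for 2xBorCTCF, 1.54 for 1xBorCTCF and 1.69 for wild type. It was the highest segment in 4 maps, while the segment from 28,525,001 to 28,550,000 was higher in i4CTCF, at 1.69, and in 2xBorCTCF, at 1.66. The segment from 28,800,001 to 28,825,000 had 1.08 for intraTAD2, 1.09 for intraTAD3, 1.11 for i4CTCF, 1.06 for 2xBorCTCF, 1.06 for 1xBorCTCF and 1.09 for wild type. The last had 1.46 for intraTAD2, 1.49 for intraTAD3, 1.45 for i4CTCF, 1.36 for 2xBorCTCF, 1.31 for 1xBorCTCF and 1.39 for wild type. Between 28,500,001 and 28,525,000 the 1xBorCTCF map had 1.22, against 1.57 for wild type.

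The genes at both ends met the 3 parts unequally, and each met the farthest part most. Contact in the stretch grew with distance, and distances were not matched between parts. Shh, on the near side, had a contact with the Shh-side part of 0.805 for intraTAD2, 0.825 for intraTAD3, 0.811 for i4CTCF, 0.982 for 2xBorCTCF, 0.903 for 1xBorCTCF and 0.735 for wild type. All mutant maps were higher, 2xBorCTCF most, by 0.42 (0.30 to 0.53), and 1xBorCTCF by 0.30 (0.20 to 0.40). Contact of Shh with the Rnf32-side part was 2.43 for intraTAD2, 2.53 for intraTAD3, 2.06 for i4CTCF, 2.11 for 2xBorCTCF, 1.86 for 1xBorCTCF and 2.17 for wild type, higher than wild type beyond counting error in intraTAD2 (0.16, 0.084 to 0.24) and intraTAD3 (0.22, 0.14 to 0.30), and lower in 1xBorCTCF (-0.22, -0.31 to -0.13). In 1xBorCTCF Shh therefore met the near part more and the far part less than in wild type. Lmbr1 met the Shh-side part most, with 2.53 for intraTAD2, 2.51 for intraTAD3, 2.42 for i4CTCF, 2.19 for 2xBorCTCF, 2.17 for 1xBorCTCF and 2.40 for wild type. There both BorCTCF maps were lower, by -0.13 (-0.20 to -0.070) for 2xBorCTCF and -0.14 (-0.20 to -0.089) for 1xBorCTCF. Its contact with the middle part was above the 1.49 of wild type in all 5 mutant maps, at 1.54 to 1.59.

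Set against intraTAD2, from whose name theirs derive, the 3 further genotypes differed in size and place. This comparison does not involve the wild-type map. Contact of the Shh-side part with the Rnf32-side part was 1.81 for i4CTCF, 1.66 for 2xBorCTCF and 1.53 for 1xBorCTCF, against 1.84 for intraTAD2. The log2 ratio was -0.017 (-0.056 to 0.021) for i4CTCF, -0.15 (-0.19 to -0.11) for 2xBorCTCF and -0.27 (-0.30 to -0.23) for 1xBorCTCF. With the expected contact of the stretch alone, which draws this block toward 1 in every map, the last 2 came to -0.015 and -0.046. With the middle part, the Shh-side part had ratios of -0.013 (-0.046 to 0.021) for i4CTCF, -0.088 (-0.12 to -0.051) for 2xBorCTCF and -0.16 (-0.19 to -0.13) for 1xBorCTCF, but without balancing the 2xBorCTCF ratio was -0.013. At the first cut, insulation of 1xBorCTCF was lower than that of intraTAD2 by -0.14 (-0.18 to -0.091) with 100 kb windows, but by -0.012 (-0.069 to 0.045) with 50 kb windows. In i4CTCF and 2xBorCTCF it differed by 0.044 (-0.011 to 0.098) and -0.0048 (-0.058 to 0.049), and with 50 kb windows it was higher, by 0.18 (0.11 to 0.25) and 0.11 (0.044 to 0.18). With 50 kb windows the lowest values at the first cut were thus those of intraTAD2 and 1xBorCTCF, at -0.32 and -0.33.

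Among tiles, the largest rise over intraTAD2 for i4CTCF and 2xBorCTCF was at 28,575,001-28,600,000 with 29,050,001-29,075,000, where contact was 2.43 for i4CTCF and 2.77 for 2xBorCTCF, against 1.63 for intraTAD2. Both intervals include 0 (0.58, -0.11 to 1.26, and 0.76, -0.013 to 1.54). The largest falls joined the first 125 kb of the stretch with its last 115 kb. That of i4CTCF was at 28,500,001-28,525,000 with 29,075,001-29,100,000, with 1.87 for i4CTCF against 2.77 for intraTAD2 (-0.56, -1.08 to -0.051). Those of 2xBorCTCF (1.38, against 2.68 for intraTAD2, log2 ratio -0.96, -1.40 to -0.52) and 1xBorCTCF (0.879, against 2.07 for intraTAD2, log2 ratio -1.24, -1.73 to -0.74) were also the tiles of largest fall against wild type. The largest rise in 1xBorCTCF was again the tile that joins the Shh end to the first cut, with 1.58 for 1xBorCTCF against 1.20 for intraTAD2 (0.39, 0.25 to 0.53). These are balanced values of the tile with the crowded bin.

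Both BorCTCF genotypes came from tetraploid aggregation, so their comparison holds the embryo source fixed. Contact of the Shh-side part with the Rnf32-side part was higher in 2xBorCTCF than in 1xBorCTCF, by 0.12 (0.071 to 0.16). With the expected contact of the stretch alone, which draws this block toward 1 in both maps, the ratio was 0.032. Contact of the Shh-side part with the middle part was higher by 0.073 (0.034 to 0.11). Insulation at the first cut was -0.081 for 2xBorCTCF and -0.21 for 1xBorCTCF, a difference of 0.13 (0.075 to 0.19). The other 4 blocks did not differ beyond counting error, with intervals reaching no farther than -0.048 and 0.095. The tile that differed most joined 28,500,001-28,525,000 with 28,950,001-28,975,000, with 2.18 for 2xBorCTCF and 1.16 for 1xBorCTCF (0.91, 0.37 to 1.45). The largest fall, -0.67 (-1.28 to -0.061), joined 28,575,001-28,600,000 with 29,025,001-29,050,000, with 1.19 for 2xBorCTCF and 1.89 for 1xBorCTCF.

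Between intraTAD3 and intraTAD2, both from mating, the cuts behaved in opposite ways. At the first cut insulation was 0.033 for intraTAD3 and -0.077 for intraTAD2, a difference of 0.11 (0.070 to 0.15), and at the second it was -0.18 for intraTAD3 and -0.021 for intraTAD2, a difference of -0.16 (-0.19 to -0.13). Without balancing the second difference was -0.004, and -0.17 when the bin right of the cut, with 426% of the median contacts in intraTAD3, was also left out. Contact of the Shh-side part with the middle part was higher in intraTAD3 than in intraTAD2 by 0.081 (0.056 to 0.10), and that of the middle part with the Rnf32-side part lower by -0.031 (-0.050 to -0.011). The largest rise among tiles joined 28,550,001-28,575,000 with 29,025,001-29,050,000, with 2.45 for intraTAD3 and 1.90 for intraTAD2 (0.36, 0.13 to 0.60). The largest fall lay in the Shh-side part, at 28,500,001-28,525,000 with 28,575,001-28,600,000, with 0.828 for intraTAD3 and 1.06 for intraTAD2 (-0.36, -0.65 to -0.069).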

How the data were processed

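Capture Hi-C maps of 5 mutant limb bud samples and of 1 wild-type map were analysed. The values of the wild-type map are 1 column that no sample owns. Per the labels' protocols, DpnII fragments were ligated and captured with SureSelect probes. The submitters' processing notes name Bowtie2 2.2.6, mm9 and mm10, with no role for each build. The deposited values are a contact signal per pair of 5 kb bins that the authors balanced by the Knight-Ruiz method after a mapping quality filter of 30, per the file names. The sources used here do not give whether duplicates were removed. The build was checked with genes shifted in 201 steps: contact of Shh with Lmbr1 and Rnf32 averaged 2.17 (log2) unshifted, 2.21 at -5 kb and at most 1.44 beyond 50 kb.

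Each value equals whole contacts times a factor per bin. The contacts were recovered within 0.01 of whole numbers for all values but 6 in intraTAD3. Values were divided by the mean at the same distance in the map. Of 558 bins, 10 were dropped from all maps because they had partners in fewer than 25% as many bins as the median bin in at least 1 map. All undefined values lie in their pairs. Intervals are weighted Poisson intervals of the log2 ratio, checked on simulated data. Shares and intervals cover counting error only, and the sources used here name no molecular identifiers. Python 3.11.15, numpy 2.4.6 and scipy 1.17.1 were used.

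Regions named are the 3 parts, 6 blocks, both cuts, minima of prominence 0.1 or more, the 5 tiles highest in wild type, and per comparison the tiles of largest rise and fall among those with 100 or more contacts in both maps together; genes serve as landmarks. Other regions and genes named, including the tile at the first cut in every map, segments, crowded bins and lncRNA genes, were chosen after their values were seen. Members, cuts, lists and rules were chosen with earlier results of these data known. Alternatives were the expected contact, minimum distance, cuts moved by 25 kb, no balancing, no bin left out, windows, tile size and fold limit; equal distances, pairs alike in distance and the insulation alternatives on the crowded bin and balancing were added after seeing the data.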

Additional observations from a re-analysis of the deposited data

How the results depend on the processing

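No paired analysis was possible because each genotype has 1 library. The cause of each change below was not tested. Depth limits single tiles most: those named above rest on as few as 36 contacts, and blocks on 7520 or more. Values are log2 differences, named by the 2 maps.

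With the expected contact from the stretch only, the within-over-between contrast against wild type was 0.027 for intraTAD2, 0.051 for intraTAD3, 0.048 for 2xBorCTCF and 0.064 for 1xBorCTCF, and against intraTAD2 -0.021 for i4CTCF, 0.021 for 2xBorCTCF and 0.037 for 1xBorCTCF. The Shh-side with Rnf32-side block of intraTAD2 over wild type turned to -0.007, in this setting that draws the block toward 1 in every map. At equal distances the contrast against wild type was 0.043 for intraTAD2, 0.088 for intraTAD3 and 0.11 for 1xBorCTCF, and against intraTAD2 -0.035 for i4CTCF, 0.042 for 2xBorCTCF and 0.068 for 1xBorCTCF. With cuts 25 kb toward Rnf32 the middle part of i4CTCF over intraTAD2 turned to 0.028.

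Without balancing, the contrast was 0.086 for intraTAD3 against wild type, and against intraTAD2 0.14 for 1xBorCTCF and 0.072 for intraTAD3. Of the blocks, those of intraTAD2 over wild type turned to -0.066 (Shh-side), -0.005 (middle) and -0.004 (Shh-side with Rnf32-side), and those of intraTAD3 to -0.048 (Shh-side with middle) and -0.028 (middle). Over intraTAD2, middle with Rnf32-side turned to -0.014 for i4CTCF, Rnf32-side to -0.012 for 1xBorCTCF and middle to -0.023 for intraTAD3. At the first cut, insulation against wild type was -0.22 for intraTAD2, -0.11 for intraTAD3 and -0.21 for i4CTCF, and against intraTAD2 0.10 for 2xBorCTCF and -0.056 for 1xBorCTCF. At the second, it was -0.14 for intraTAD2, and turned to -0.086 for i4CTCF, -0.013 for 2xBorCTCF and -0.12 for 1xBorCTCF. Against intraTAD2 it was 0.054 for i4CTCF, 0.13 for 2xBorCTCF and -0.004 for intraTAD3, and 0.11 for 2xBorCTCF against 1xBorCTCF.

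Without balancing and without the bin right of the cut, insulation at the first cut against wild type was -0.30 for intraTAD2, -0.10 for intraTAD3, -0.23 for i4CTCF and -0.32 for 1xBorCTCF. Against intraTAD2 it was 0.21 for 2xBorCTCF, -0.019 for 1xBorCTCF and 0.20 for intraTAD3, and 0.23 for 2xBorCTCF against 1xBorCTCF. At the second cut against wild type it was -0.16 for intraTAD2 and -0.32 for intraTAD3, and turned to -0.10 for i4CTCF, -0.033 for 2xBorCTCF and -0.15 for 1xBorCTCF. Against intraTAD2 it was 0.050 for i4CTCF and 0.12 for 2xBorCTCF, and 0.11 for 2xBorCTCF against 1xBorCTCF.

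For pairs 50 to 200 kb apart, alike in distance, the first cut gave -0.064 for intraTAD2 and 0.028 for intraTAD3 against wild type, and -0.070 for 2xBorCTCF against intraTAD2. The second gave 0.078 for i4CTCF and 0.039 for 2xBorCTCF against wild type, 0.020 for 2xBorCTCF against intraTAD2 and -0.042 against 1xBorCTCF.

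Windows of 150 kb gave, at the first cut against wild type, -0.035 for intraTAD2, 0.074 for intraTAD3, -0.001 for i4CTCF, -0.070 for 2xBorCTCF and -0.17 for 1xBorCTCF, and at the second cut -0.046 for intraTAD3 against wild type and -0.081 against intraTAD2. Windows of 50 kb gave -0.25 for intraTAD2 against wild type at the first cut, and against intraTAD2 0.18 for i4CTCF, 0.11 for 2xBorCTCF, -0.012 for 1xBorCTCF and 0.27 for intraTAD3. At the second cut they gave -0.023 for intraTAD2, -0.32 for intraTAD3, 0.069 for i4CTCF and 0.044 for 2xBorCTCF against wild type, and -0.30 for intraTAD3 against intraTAD2.

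Tiles past the limit in either direction numbered 4 for intraTAD2, 4 for intraTAD3, 16 for i4CTCF, 40 for 2xBorCTCF and 28 for 1xBorCTCF. A limit of 1.5-fold left 0 for intraTAD2, intraTAD3 and i4CTCF, 9 for 2xBorCTCF and 8 for 1xBorCTCF. Tiles of 50 kb, of which the stretch has 78, left 0 in the first 3 maps, 2 for 2xBorCTCF and 6 for 1xBorCTCF. With the expected contact from the stretch only, 2 were left in intraTAD2 and 1 for intraTAD3.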
